A study of Mus musculus with 12 samples.

Results

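Open chromatin after 56 h of estradiol (E2) withdrawal followed by 64 h of E2 add-back was set against open chromatin after 40 h of withdrawal followed by 80 h of add-back. The cells were murine ER-Hoxa9 Lys-GFP cells of C57BL/6 strain, a myeloid progenitor line whose maturation is held back by Hoxa9 fused to the estrogen receptor, and which carries GFP as a reporter of lysozyme. All groups share the fusion, the reporter and a medium with SCF-conditioned supplement, and the labels give E2 as the one difference between them. ATAC-seq, in which a transposase cuts and tags accessible DNA, was run on 12 libraries in 6 groups of 2. The other groups were cells kept in E2, cells with 24 or 72 h of withdrawal and then 96 or 48 h of add-back, and cells with 120 h without E2. Per the labels, nuclei of 1 lysis were split into 2 transposition reactions, so the libraries of a group may be technical copies. One peak list stands for both libraries of a group and holds only positions, so there is no replicate spread, no depth and no test between samples. The 56 h cells had both a longer withdrawal and a shorter add-back than the 40 h cells, and the effects of these durations cannot be told apart.

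Regions were classed by overlap of the cleaned 56 h and 40 h peak lists. A 56 h peak with no 40 h peak on any of its bases was 56h-only, a 40 h peak with no 56 h peak was 40h-only, and overlapping peaks formed a shared region. This gave 11009 regions, of which 1069 were 56h-only (9.71% of the regions), 2034 were 40h-only (18.5%) and 7906 were shared. All 6 lists together hold 16028 regions. Intervals given below are 95% Wilson intervals and cover counting error over regions only.

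Hoxa9 is a homeobox transcription factor that, with cofactors such as Meis1, keeps myeloid progenitors dividing and immature. When E2 is taken away the fusion protein is inactive and the cells mature towards neutrophils, and beyond some duration of withdrawal added E2 no longer brings them back. Gene starts tend to be open in many cell states, while open sites far from gene starts are often enhancers, which differ more between cell states.

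The following sequences are the 250 bases before the start of 6 genes whose start was open in only one of the 2 lists, from RefSeq on GRCm38.p6. Ep300 and Jun had the widest such regions among the listed genes. Meis1, Flt3 and Mpo had a start called in E2, at 24 h and at 40 h and in no later list, which is written below as ending with 40 h. Cdkn2c had a start called at 56, 72 and 120 h and in no earlier list, written as beginning with 56 h. These 4 were chosen after their values were seen. Capitals mark matches, on either strand, of the motifs searched except the loose C/EBP motif TTNNNCAA, and each sequence runs 5′ to 3′ towards the gene.
Ep300 (56h-only, chr15:81585964-81586213, plus strand): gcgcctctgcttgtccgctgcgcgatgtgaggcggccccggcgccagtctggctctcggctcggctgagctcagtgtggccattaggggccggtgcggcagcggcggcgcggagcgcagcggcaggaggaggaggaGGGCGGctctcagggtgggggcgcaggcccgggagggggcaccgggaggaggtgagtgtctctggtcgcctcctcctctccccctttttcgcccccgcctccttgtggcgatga
Cdkn2c (56h-only, chr4:109666757-109667006, minus strand): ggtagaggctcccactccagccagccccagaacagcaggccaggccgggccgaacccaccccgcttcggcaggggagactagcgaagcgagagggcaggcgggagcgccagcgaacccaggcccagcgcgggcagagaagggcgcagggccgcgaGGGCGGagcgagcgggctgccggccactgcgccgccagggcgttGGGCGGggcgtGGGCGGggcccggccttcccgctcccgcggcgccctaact
Meis1 (40h-only, chr11:19018970-19019219, minus strand): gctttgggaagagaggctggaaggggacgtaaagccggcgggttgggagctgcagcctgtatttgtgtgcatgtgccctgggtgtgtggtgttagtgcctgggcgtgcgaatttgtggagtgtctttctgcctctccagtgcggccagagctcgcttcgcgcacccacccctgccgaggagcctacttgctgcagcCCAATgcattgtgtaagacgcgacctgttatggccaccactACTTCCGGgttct
Flt3 (40h-only, chr5:147400490-147400739, minus strand): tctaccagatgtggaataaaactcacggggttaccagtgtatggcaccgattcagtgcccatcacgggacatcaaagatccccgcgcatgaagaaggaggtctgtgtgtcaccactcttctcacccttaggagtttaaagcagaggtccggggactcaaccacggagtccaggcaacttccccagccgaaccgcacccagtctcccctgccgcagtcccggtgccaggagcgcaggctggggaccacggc
Mpo (40h-only, chr11:87793534-87793783, plus strand): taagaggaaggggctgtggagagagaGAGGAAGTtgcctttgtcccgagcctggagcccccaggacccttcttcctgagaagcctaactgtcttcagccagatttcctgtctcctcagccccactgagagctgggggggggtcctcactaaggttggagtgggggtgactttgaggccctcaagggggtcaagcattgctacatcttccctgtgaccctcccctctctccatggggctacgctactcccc
Jun (40h-only, chr4:95052223-95052472, minus strand): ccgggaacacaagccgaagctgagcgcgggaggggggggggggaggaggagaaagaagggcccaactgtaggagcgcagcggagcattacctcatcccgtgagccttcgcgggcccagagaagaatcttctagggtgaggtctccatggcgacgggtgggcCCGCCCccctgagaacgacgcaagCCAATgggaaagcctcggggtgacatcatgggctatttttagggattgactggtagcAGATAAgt

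The Cdkn2c sequence has 29 CpG dinucleotides and a GC content of 77.2%, and the SP and KLF motif GGGCGG stands in it 3 times between bases 35 and 95 before the start. Ep300 has 25 CpG and 1 match of GGGCGG. Meis1 and Flt3 have 13 CpG each and no GGGCGG, Mpo has 2 CpG and Jun has 15. GC content is 73.2% in Ep300, 61.2% in Jun, 59.6% in Meis1 and 59.2% in both Flt3 and Mpo. Mpo has the PU.1 motif GAGGAAGT at bases 217 to 224 before its start, Meis1 has the ETS motif CCGGAAGT at bases 6 to 13, read on the other strand, and the NF-Y motif CCAAT at bases 50 to 54. Flt3 has none of the motifs marked. Jun has 1 match each of the SP and KLF motif and the NF-Y motif and, at bases 3 to 8 before the start, 1 match of the GATA motif.

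The cleaned 56 h list held 8989 peaks over 5.64 Mb, and the 40 h list 9940 peaks over 7.20 Mb. Median peak widths were 602 bases at 56 h and 696 bases at 40 h. The list in continuous E2 had 13165 peaks and the one at 120 h had 7987. Of the peaks, 63.4% at 56 h and 59.2% at 40 h touched a RefSeq promoter window of 250 bases before to 50 bases after a gene start, against 1.91% and 2.03% after all peaks were moved by 100000 bases. Of 32 progenitor genes, 22 had a region and 18 had a shared one. The starts of the SCF receptor gene Kit and of the progenitor factor gene Myb were shared and were called in every list except that at 120 h. The region of Spi1, which encodes the myeloid factor PU.1, was called in all 6 lists. It lay inside the gene near a boundary that may be a start or an end. Of the 12 mast cell, basophil and eosinophil genes only Mitf had a region, a shared one. No region of either list was assigned to Hoxa9, Cebpa, Gfi1, Elane, Lyz2 or Csf3r.

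Of the 56 h peaks, 11.9% had no 40 h partner (11.2 to 12.6), and of the 40 h peaks, 20.5% had no 56 h partner (19.7 to 21.3). The lists differ in length, and cutting both to the shorter length, 8989 peaks, dropped narrow peaks of the 40 h list alone. The shares were then 17.6% and 17.7%, about equal by construction. The 72 h and 56 h lists, compared in the same way, had 15.3% of 72 h peaks and 9.76% of 56 h peaks without a partner. The 40 h and 24 h lists had 11.2% of 40 h peaks and 23.0% of 24 h peaks without a partner. In distance alone the classes had a clear edge. The closest 56h-only region lay 598 bases from a 40 h peak, and the closest 40h-only region lay 554 bases from a 56 h peak. The smallest overlap among shared peaks was 149 bases, and in 179 of 7920 overlapping pairs the overlap was under 50% of either peak. Shares without a partner ranged over the chromosomes from 6.87% on chromosome 18 to 14.6% on chromosome 13 at 56 h, apart from chromosome Y with 1 peak. At 40 h they ranged from 17.1% on chromosome 11 to 25.2% on chromosome 13.

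The 4 lists that took no part in the classes separated them. Of the 56h-only regions, 57.3% were called in continuous E2 (54.4 to 60.3), 54.4% at 24 h, 71.5% at 72 h and 46.9% at 120 h (43.9 to 49.9). Of the 40h-only regions, 83.2% were called in continuous E2 (81.5 to 84.8), 78.2% at 24 h, 35.9% at 72 h and 21.0% at 120 h (19.3 to 22.9). Shared regions were called in 90.2%, 91.6%, 92.8% and 77.7% of cases in the same lists. So 40h-only regions were mostly called in continuous E2 and at 24 h and mostly not called at 72 h and 120 h. The 72 h cells, like the 40 h and 56 h cells, had E2 added back. The 56h-only regions were called on both sides of 40 h. The 56h-only share in continuous E2 was 36.7% when overlaps had to cover 50% of both intervals throughout.

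**Figure D1:**
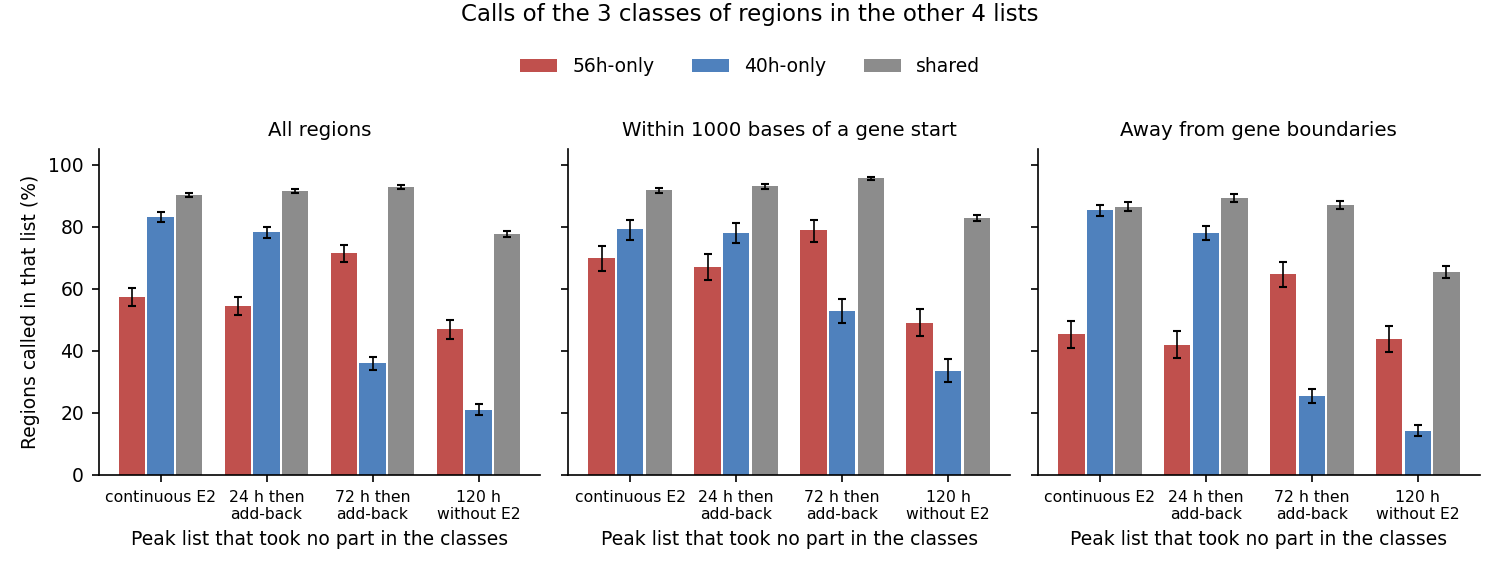
Share of 56h-only (red), 40h-only (blue) and shared (grey) regions that were called in each of the other 4 peak lists, for all regions, for those within 1000 bases of a gene start and for those away from gene boundaries. Bars give percentages with 95% Wilson intervals; away from gene boundaries, 40h-only regions stand at 85.3% in continuous E2 and 14.2% at 120 h, and 56h-only regions at 45.3% and 43.8%.

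The shares of the classes stood farther apart away from gene boundaries, a boundary being the 1000 bases on either side of either end of a gene in the gene table, which leaves out inner starts. Among regions away from boundaries, 43.8% of the 512 56h-only regions and 14.2% of the 1312 40h-only regions were called at 120 h. In continuous E2 the same regions were called in 45.3% and 85.3% of cases. At gene starts, 49.0% of 498 56h-only regions and 33.6% of 646 40h-only regions were called at 120 h, and 69.9% and 79.1% were called in continuous E2.

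Single patterns over the 6 lists show this in more detail. Of the 40h-only regions, 887 (43.6%) ended with 40 h. Of these, 21.3% lay at a gene boundary. A further 236 were called in all lists but that at 56 h, and 63.6% of those lay at a gene boundary. Another 97 were called at 40 h alone. Of the 56h-only regions, 129 (12.1%) began with 56 h, with 28.7% at a gene boundary, and 224 (21.0%) were called in all lists but that at 40 h, with 71.0% at one. The 56 h list was the only one to hold 87 regions. Of the shared regions, 5273 were called in all 6 lists.

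Widths of the last-called regions became smaller along the series. The 887 regions that ended with 40 h had median widths of 749 bases in continuous E2, 635 bases at 24 h and 528 bases at 40 h, and 30 of them were wider at 40 h than in E2. Their median log2 width at 40 h over E2 was -0.42, against -0.30 for the 5273 regions called in all 6 lists. The 129 regions that began with 56 h had median widths of 395 bases at 56 h, 417 bases at 72 h and 467 bases at 120 h, and 88 of them were wider at 120 h than at 56 h. Their median log2 width at 120 h over 56 h was 0.17, against -0.05 for regions called in all 6 lists. Regions called in all 6 lists were wider from the start, with a median of 935 bases in continuous E2. The 887 and the 129 regions were picked by which lists called them, and narrow peaks more often lacked a partner. How far this choice shaped their widths was not tested. Width was the only measure of size in the lists.

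The classes differed in where they lay. At gene boundaries were 52.1% of 56h-only regions (49.1 to 55.1), 35.5% of 40h-only regions (33.4 to 37.6) and 72.1% of shared regions (71.1 to 73.1). At gene starts alone the shares were 46.6%, 31.8% and 64.4%. Inside a gene but over 1000 bases from its boundaries, where some inner starts such as that of Bbc3 still lie, were 25.4% of 56h-only, 35.2% of 40h-only and 15.3% of shared regions. Between genes lay 22.5%, 29.3% and 12.6%. With both lists cut to 8989 peaks, the shares at gene boundaries were 44.8% for 56h-only and 41.0% for 40h-only regions.

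Regions of only one list were narrower than shared ones. Median widths were 500 bases for 56h-only, 582 bases for 40h-only and 734 bases for shared regions, the last measured over both peaks. Narrow peaks most often lacked a partner: when each list was split into 5 equal groups by width, 23.8% of the narrowest 56 h peaks and 37.8% of the narrowest 40 h peaks had none, against 9.62% and 16.0% of the widest. At each width, peaks away from gene boundaries lacked a partner more often than those at boundaries. In the widest group, 12.9% of 56 h peaks and 30.9% of 40 h peaks away from boundaries had no partner, and 8.81% and 11.9% of those at boundaries, with intervals that overlap at 56 h.

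**Figure D2:**
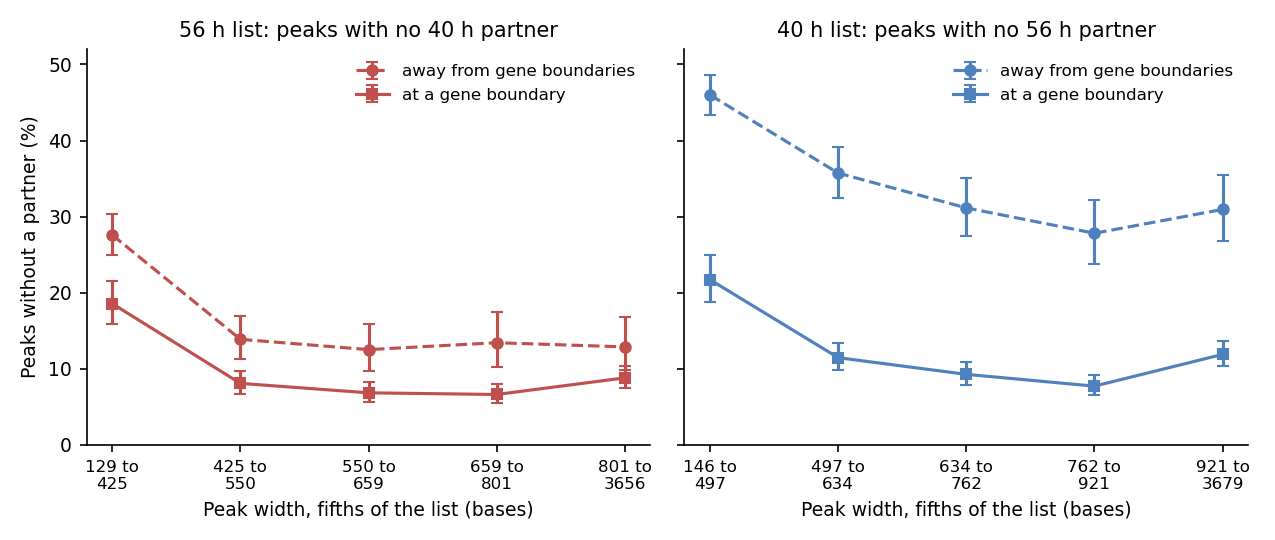
Share of 56 h peaks without a 40 h partner (left, red) and of 40 h peaks without a 56 h partner (right, blue), in 5 equal groups of peak width in bases, for peaks at a gene boundary (squares) and away from it (circles). Error bars are 95% Wilson intervals; the narrowest 40 h peaks away from boundaries reach 46.0%, and the widest 56 h peaks at boundaries stand at 8.81%.

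Shared regions were narrower at 56 h. Among the 7892 shared regions made of 1 peak in each list, median widths were 612 bases at 56 h and 719.5 bases at 40 h, and the median log2 width at 56 h over 40 h was -0.18. Only 15.2% were wider at 56 h. The 56 h peak lay wholly inside the 40 h peak in 63.2% of 7920 overlapping pairs, and the peak centres were a median of 32 bases apart. The remaining 14 shared regions held 2 peaks at 56 h and 1 peak at 40 h. Among regions of at least 500 bases in both lists, the one that narrowed most lay at Atp13a3, which encodes a polyamine transporter, with 517 bases at 56 h and 1880 bases at 40 h (log2 -1.86). The start region of Fanci, a DNA crosslink repair gene, had 531 bases at 56 h and 1282 bases at 40 h. In the other direction, Zc3h4, which encodes a zinc finger protein that limits unproductive transcription, had 1714 bases at 56 h and 951 bases at 40 h (log2 0.85). At Gda, the guanine deaminase gene, a region called from 40 h on in every list had 894 bases at 56 h and 566 bases at 40 h.

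**Figure D3:**
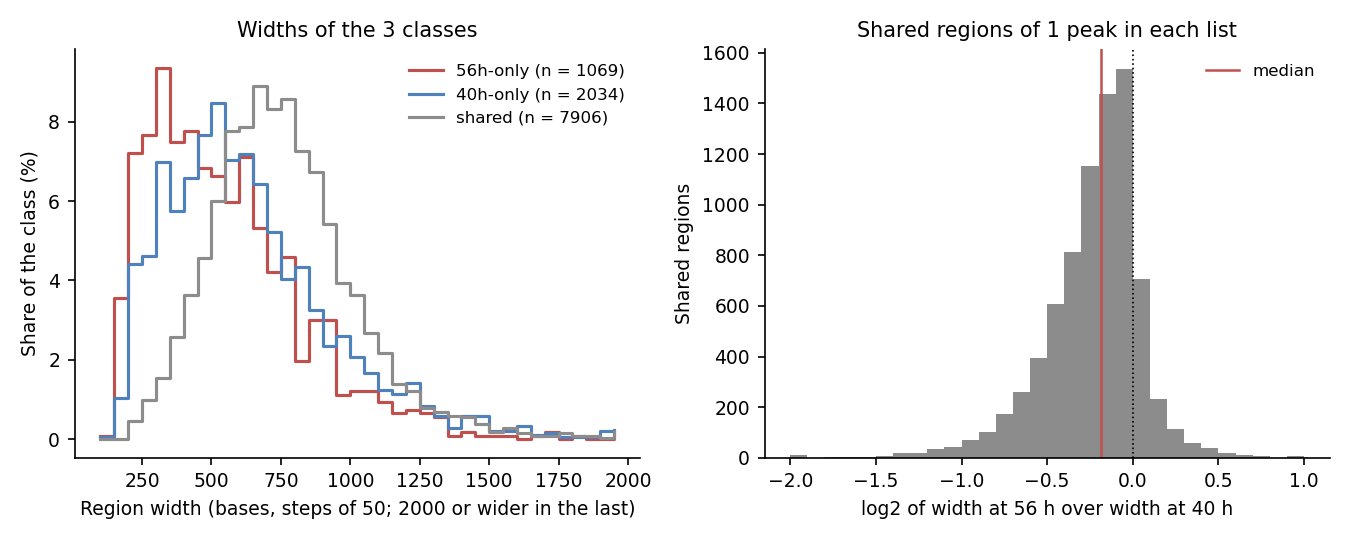
Left, widths of 56h-only, 40h-only and shared regions in bases, as a share of each class in steps of 50 bases. Right, number of shared regions of 1 peak per list by the log2 of their width at 56 h over that at 40 h; most lie left of 0, with the median (red line) at -0.18.

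Of 10422 regions within 50000 bases of a protein-coding gene, 987 were 56h-only (9.47%) and 1854 were 40h-only (17.8%), and 8732 genes had at least 1 region. The nearest gene need not be the one that a region serves. Shared regions alone were found at 6224 of these genes, 56h-only regions alone at 620 and 40h-only regions alone at 1073. Both 56h-only and 40h-only regions were found at 126 genes, 7 of them on the gene lists used here: Cxcr4, Flt3, Foxp1, Jak1, Junb, Spred1 and Tal1. The genes with the most 56h-only regions were Ikzf1, Pdzd8 and Tmem267 with 3 each. Those with the most 40h-only regions were Chd9, a chromatin remodeller gene, with 5, and Abcc4, which encodes an exporter of cyclic nucleotides and drugs, with 4. Of the 5 Chd9 regions, 3 ended with 40 h, among them 1 at a gene start and 1 of 1096 bases.

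Progenitor and Hoxa9-associated genes had 7 56h-only, 14 40h-only and 23 shared regions, so 15.9% and 31.8% of their 44 regions were in only one list, against 9.47% and 17.8% of all assigned regions. The order of these counts depended on the length of the lists: with both cut to the shorter length they were 11, 9 and 19, and with peaks at or above the median width alone 3, 5 and 14. Regions of 1 gene, such as those of Flt3, are not independent. Of the 14 40h-only regions, 11 ended with 40 h, among them regions at Cd34, Cdk6, Flt3, Foxp1, Id2, Ikzf2, Meis1 and Tal1. Among all 40h-only regions 887 ended so (43.6%), and among all assigned regions of any class 785 did (7.53%). The other 40h-only regions were at Cdk6, Hmga2 and Ikzf2.

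Flt3, the receptor of a progenitor growth factor, had 1 56h-only and 3 40h-only regions and none shared. The 56h-only region, chr5:147388885-147389315, lay inside the gene 11.4 kb after the start and began with 56 h. All 3 40h-only regions ended with 40 h. One of 817 bases covered the start (chr5:147400082-147400898), and the others, of 582 and 521 bases, lay 34.0 and 59.2 kb inside the gene. At each of these 4 regions the series was divided between 40 h and 56 h, with no region called on both sides.

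Meis1, the Hoxa9 cofactor, had a 40h-only region of 954 bases over its start (chr11:19018611-19019564), which ended with 40 h. Its region 94.0 kb inside the gene was shared, with 388 bases at 56 h and 452 bases at 40 h. Cd34, a surface marker of stem and progenitor cells, had a 40h-only region 4.79 kb after its start with the same pattern and 2 shared regions. Cdk6, a cell cycle kinase of progenitors, had 2 40h-only and 3 shared regions. Tal1, a blood stem cell factor, had a 56h-only region 0.586 kb after its start, called in all lists but those at 40 h and 120 h. Its 40h-only region of 1247 bases lay 5.53 kb after the start and ended with 40 h. The start of Runx1 and a gene boundary of Myc were 56h-only and were also called in E2 and at 24 h, so 40 h was a gap in the series there. The Runx1 region had 406 bases and was called at 120 h too, while the Myc region of 608 bases was not. Hlf, another stem cell factor, had a 56h-only start region of 516 bases called at 56 h and 72 h alone.

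**Figure D4:**
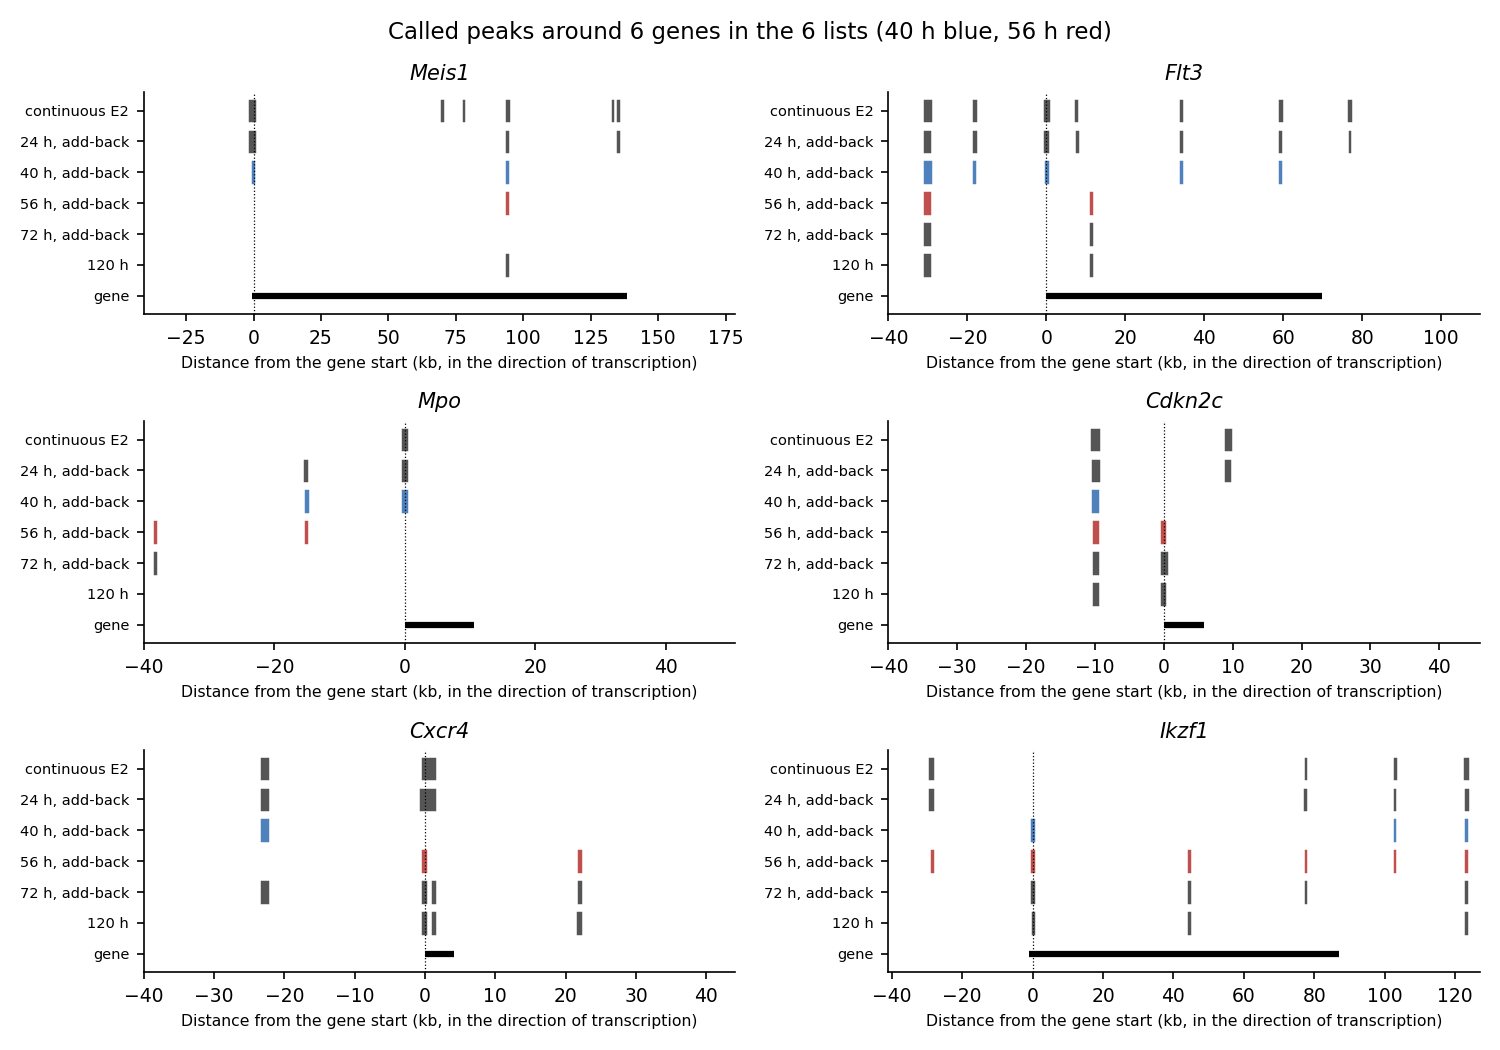
Called peaks around 6 genes in the 6 peak lists, by distance in kb from the gene start in the direction of transcription, with 40 h in blue, 56 h in red and the gene as a black line; thin outlines keep narrow peaks visible. The start peaks of Meis1, Flt3 and Mpo end with the 40 h list, that of Cdkn2c begins with the 56 h list, that of Cxcr4 is missing at 40 h alone, and that of Ikzf1 begins with the 40 h list.

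Myeloid and granulocyte factor genes had 1 56h-only, 4 40h-only and 16 shared regions. The 56h-only region lay at an inner start of Runx3, a Runt factor gene. The 40h-only regions lay at the growth-induced factor genes Egr1 and Egr2, at Nr4a2, an orphan nuclear receptor gene, and at Cebpd, a C/EBP factor gene. Those at Egr1, Egr2 and Nr4a2 ended with 40 h, and the Egr1 region of 1516 bases lay at the gene boundary. The Cebpd region of 1330 bases was called in all lists but that at 56 h. The regions of Irf8, a monocyte factor gene, and Cebpe, a granule gene activator, were shared. The Cebpe region, 4.01 kb from the gene, was made of a 56 h peak of 439 bases and a 40 h peak of 207 bases, and these counted as 1 56h-only and 1 40h-only region when overlaps had to cover 50% of both peaks.

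Primary granule and promyelocyte genes had 1 56h-only, 2 40h-only and 4 shared regions, 14.3% and 28.6% of their 7 (all assigned regions 9.47% and 17.8%). Mpo, the myeloperoxidase gene, had a 40h-only start region of 662 bases (chr11:87793401-87794062), which ended with 40 h. Srgn, the granule proteoglycan gene, had a 40h-only region of 347 bases called at 40 h alone. Hk3, a hexokinase gene of myeloid cells, had the 56h-only one, 311 bases at its start, also called in E2, at 24 h and at 72 h.

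Late neutrophil genes had 3 56h-only, 4 40h-only and 3 shared regions, 30% and 40% of their 10 (all assigned regions 9.47% and 17.8%). The counts were 5, 2 and 1 with both lists cut to the shorter length and 0, 2 and 0 with peaks at or above the median width alone. Cxcr4, the receptor that holds neutrophils in the marrow, had 2 56h-only regions and 1 40h-only region. The 56h-only region at its start had 516 bases and was called in all lists but that at 40 h. The other, 21.9 kb after the start, had 402 bases and began with 56 h. The 40h-only region of 1007 bases lay 22.9 kb before the start and was also called in E2, at 24 h and at 72 h. Mcemp1, which encodes a mast cell and myeloid membrane protein, had a 56h-only region of 335 bases, called in all lists but that at 40 h. Anxa1, Lyz1 and Mmp8 had 1 40h-only region each. The Anxa1 region was also called in E2, at 24 h and at 72 h, and the Lyz1 region at 72 h and 120 h. That of Mmp8, the neutrophil collagenase gene, was called in all lists but that at 56 h.

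Phagocyte function genes had 3 56h-only, 7 40h-only and 21 shared regions, 9.68% and 22.6% of their 31 (all assigned regions 9.47% and 17.8%). The 56h-only region of Fgr, a Src family kinase gene, began with 56 h. Such regions made up 117 of all assigned ones (1.12%). Another 56h-only region lay at the start of Lcp1, the gene of an actin-bundling protein, and was also called in E2 and at 120 h. The 40h-only regions of Fcgr1, an IgG receptor gene, and Rac2, a GTPase gene of the NADPH oxidase, ended with 40 h. Alox5, Alox5ap, Csf2ra and Syk had 1 40h-only region each with other patterns. Monocyte and macrophage genes had no 56h-only region, 2 40h-only regions at Adgre1 and F13a1, and 3 shared ones, so 40% of their 5 regions were 40h-only.

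Cytokine receptor and signal feedback genes had 8 56h-only, 12 40h-only and 23 shared regions, 18.6% and 27.9% of their 43 (all assigned regions 9.47% and 17.8%). Feedback inhibitors of the same family differed in class. Spry2, an inhibitor of growth factor signalling, had a 56h-only region of 916 bases before its start, and Spry1 a 40h-only region of 1219 bases at its start. Both regions were also called in E2 and at 72 h. Spred1, another inhibitor, had a 56h-only start region of 1109 bases that was also called in E2, at 24 h and at 72 h. Its 40h-only region of 495 bases lay 15.5 kb upstream and ended with 40 h. Socs3, which limits cytokine signalling, had a 56h-only start region of 797 bases, and Dusp2, a MAP kinase phosphatase gene, a 40h-only one of 1270 bases. Both were also called in E2 and at 24 h, and that of Dusp2 at 120 h too. The start of Jak1, a kinase of cytokine receptors, was 56h-only, called in all lists but that at 40 h. The start of Il6ra, an interleukin receptor gene, was 40h-only and was also called at 24, 72 and 120 h.

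AP-1 subunit genes had 6 56h-only, 4 40h-only and 13 shared regions, 26.1% and 17.4% of their 23 (all assigned regions 9.47% and 17.8%). The 56h-only regions lay at Atf3, Batf, Fosb, Fosl2, Junb and Maff, 1 each, and none of them began with 56 h. Fosl2 had the widest, with 1081 bases, called in all lists but that at 40 h. Jun had both of its regions in the 40h-only class, a start region of 1633 bases that was also called at 24, 72 and 120 h, and one of 692 bases 23.6 kb upstream that ended with 40 h. Fos had 4 regions, all shared and called in all 6 lists.

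Cell cycle genes had 5 56h-only, 3 40h-only and 22 shared regions, 16.7% and 10% of their 30 (all assigned regions 9.47% and 17.8%). Cdkn2c, which encodes the p18 inhibitor of cyclin D kinases, had a 56h-only start region of 609 bases that began with 56 h. The other 56h-only regions lay at the D cyclin genes. Ccnd3 had one of 561 bases with the same pattern and one of 272 bases that was also called in E2 and at 24 h. Both regions of Ccnd2, of 244 and 439 bases, were called at 56 h and 72 h alone. The 40h-only regions lay at the starts of Mcm5, a replication helicase gene, and Plk1, a mitotic kinase gene, and near E2f2, which encodes an activator of replication genes. Each of these 3 was also called in E2, at 24 h and at 72 h.

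Survival genes of the BCL2 family had 3 56h-only, 2 40h-only and 14 shared regions, 15.8% and 10.5% of their 19 (all assigned regions 9.47% and 17.8%). The 56h-only regions of Mcl1, a survival gene, and Pmaip1, a death-promoting gene, began with 56 h. That of Bbc3, another death-promoting gene, lay at its start and was called at 56 h and 72 h alone. Bcl2l1, which encodes BCL-XL, had a 40h-only region of 1017 bases inside the gene that ended with 40 h. Bid had a 40h-only region of 542 bases, called in all lists but that at 56 h.

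Chromatin modifier genes had 5 56h-only, 8 40h-only and 19 shared regions, 15.6% and 25% of their 32 (all assigned regions 9.47% and 17.8%). The starts of Ep300, a histone acetyltransferase gene, Bmi1, a Polycomb gene, and Chd4, a remodeller gene, were 56h-only. The start of Ezh2, the Polycomb methyltransferase gene, was 40h-only. All 4 were also called in lists before 40 h and after 56 h. Arid1b, a subunit gene of the BAF remodeller, had 3 40h-only regions, 1 of them at a start. Dnmt3a, a DNA methyltransferase gene, and Smarca2, an ATPase gene of BAF, each had a 40h-only region that ended with 40 h.

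Housekeeping genes had 2 56h-only, 5 40h-only and 15 shared regions. Their shares of 9.09% and 22.7% stand beside 9.47% and 17.8% of all assigned regions. They show how often regions assigned to constantly active genes were in only one list. The 2 56h-only regions and 1 of the 5 40h-only regions lay at a gene boundary, and the others need not serve these genes. The starts of B2m and Vcp were 56h-only, and both were also called in E2. Actb had 2 40h-only regions and Gusb 1, all 3 called in all lists but that at 56 h. Lymphoid genes had 5 56h-only, 3 40h-only and 5 shared regions, 38.5% and 23.1% of their 13. Ikzf1, which encodes a factor of lymphoid and early myeloid cells, had 3 of the 56h-only ones, and 1 of these began with 56 h. The start region of Ikzf1 was shared and called from 40 h on in every list. Tcf3 and Pax5 had 1 56h-only region each, and Dntt, Notch1 and Tcf7 1 40h-only region each. Erythroid and megakaryocyte genes had 1 56h-only region at Vwf, 1 40h-only region at Klf1 and 3 shared ones, 20% and 20% of their 5 in only one list. The number of cells of another type was not measured, and its part in these calls was not tested.

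**Figure D5:**
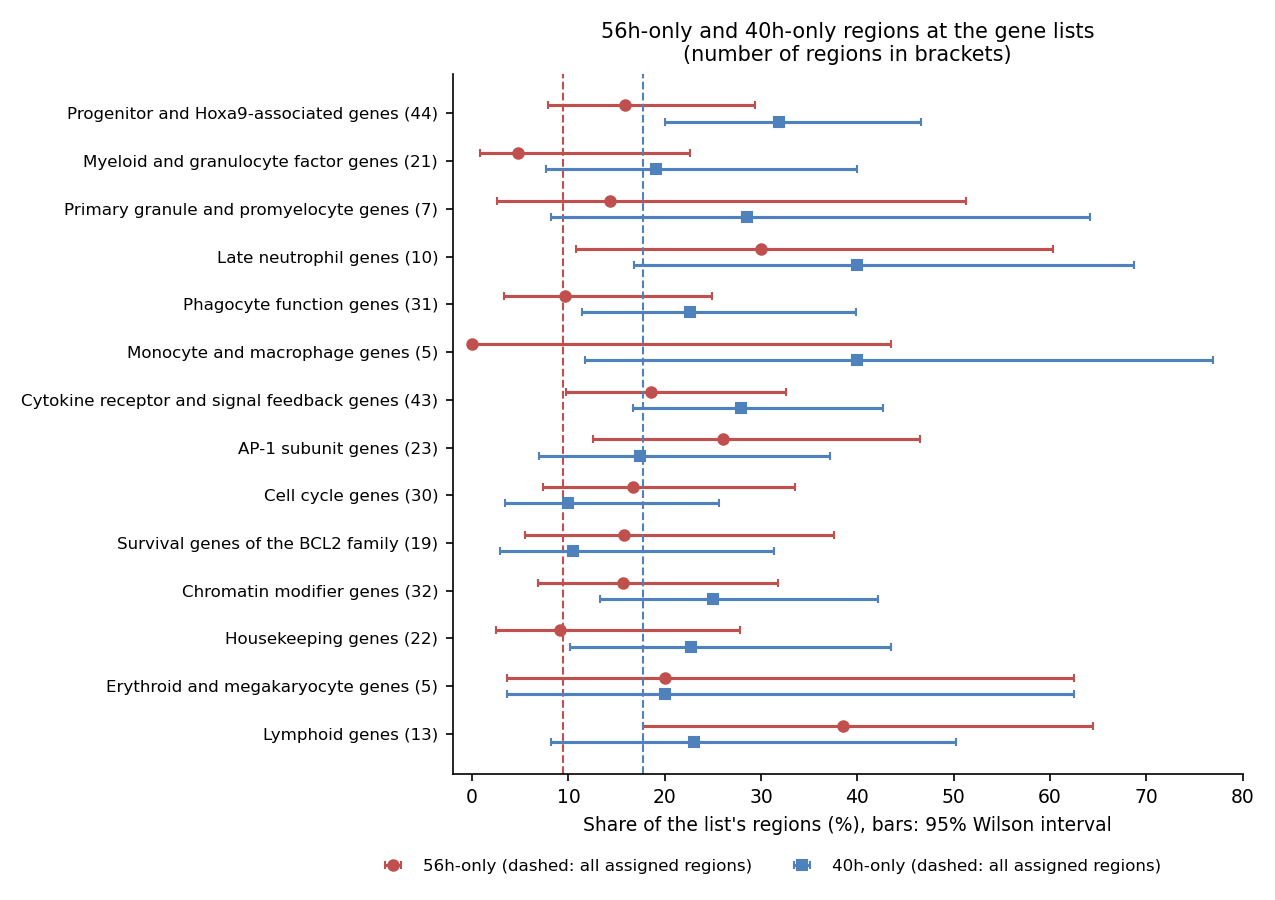
Share of each gene list's regions that were 56h-only (red circles) or 40h-only (blue squares), in percent with 95% Wilson intervals, for the lists with at least 5 regions; dashed lines give the shares over all assigned regions, 9.47% and 17.8%. The progenitor list stands at 15.9% and 31.8%, the AP-1 list at 26.1% and 17.4%, and most intervals are wide, as the lists hold few regions.

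The counts of other lists also moved with the length of the peak lists. With both cut to the shorter length, phagocyte function genes had 6 56h-only and 6 40h-only regions, survival genes 5 and 2, and myeloid and granulocyte factor genes 3 and 4. AP-1 subunit genes then had 7 and 4 and lymphoid genes 5 and 3. With peaks at or above the median width alone, AP-1 subunit genes had 3 and 1 and lymphoid genes 1 and 0.

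Gene starts can also be followed one by one. Of 21263 promoter windows of protein-coding genes, 576 (2.71%) were touched by a 56h-only region, 758 (3.56%) by a 40h-only region and 6414 by a shared one. Windows of 28 genes began with 56 h, and those of 205 genes ended with 40 h, with calls here taken over the window alone. Of the 229 windows that ended so, 209 (186 genes) were touched by a 40h-only region. The other 20 (19 genes) were touched by a shared region. Of the listed genes, Cdkn2c was the only one of the first kind in the 56h-only class, and Flt3, Meis1 and Mpo were the ones of the second kind in the 40h-only class.

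The base composition of these windows differed. The median number of CpG per 300 bases was 24 in 56h-only, 20 in 40h-only and 24 in shared windows, against 13 in all windows. Windows called from 56 h on had a median of 25, and those that ended with 40 h a median of 17. The motif GGGCGG, the site of the SP and KLF factors, was in 71.0% of 56h-only (67.2 to 74.6), 60.8% of 40h-only (57.3 to 64.2) and 74.2% of shared windows, and in 46.2% of all windows. It was in 22 of the 28 windows called from 56 h on and in 50.7% of the 229 that ended with 40 h. The NRF1 motif GCGCANGCG was in 19.3% of 56h-only, 14.9% of 40h-only and 18.5% of shared windows, in 5.68% of those that ended with 40 h (3.35 to 9.47), and in 8.58% of all windows. The loose C/EBP motif was in 21.0% of 56h-only (17.9 to 24.5) and 26.8% of 40h-only windows (23.8 to 30.0), against 33.5% of all windows. The PU.1 motif GAGGAAGT was in 1.91% of 56h-only and 2.90% of 40h-only windows, against 3.13% of all windows, and the AP-1 motif TGANTCA in 2.78% and 4.22%, against 6.99%, and the intervals of both classes overlap for each of these 3 motifs. The PBX-HOXA9 motif TGATTTAT was in 2 of 576 56h-only windows, in 1 of 758 40h-only windows and in 0.814% of all windows. A motif match is a match of letters and no measure of binding, and open sites away from gene starts, where most regions that ended with 40 h lie, were not searched.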

How the data were processed

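Peak positions of 12 ATAC-seq libraries were used, as 1 list per group of 2 libraries. The deposited lists give chromosome, start and end and no score or count, so depth is unknown. Per the submitters' processing notes, BWA, MACS2 2.0 and STAR 2.5 were used, with no role or order given, and the build listed is mm9. The positions matched GRCm38 gene starts, and GRCm38.p6 from RefSeq was used. How the 2 libraries were combined is not given in the sources used here.

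Exact duplicates (214 at 56 h and 510 at 40 h) and intervals over 10000 bases (2 and 3) were dropped and overlapping peaks were merged, and all of these lay on chromosomes 18 and 19. Lists were compared by an overlap of at least 1 base. Each region was given to an overlapping protein-coding gene or, failing that, to the gene with the closest boundary up to 50000 bases away. The RefSeq gene table gives no strand, so a boundary can be a start or an end, and regions up to 1000 bases from one were said to lie at it. Gene starts come from the promoter table. Motifs were searched on both strands of RefSeq promoter windows (300 bases). Shares have 95% Wilson intervals. No p-value was computed, as each group has 1 list.

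Named genes were, for each of 15 gene lists, up to 4 with the most 56h-only regions, 4 with the most 40h-only regions and 2 with the most shared ones. Added were the 10 genes with the most regions of each class, the widest regions, the largest width ratios and a few genes named in any case, such as Meis1 and Kit. Other listed genes named in the text complete a count. Some genes counted in the lists are not reported here by name. Members and lists were chosen with earlier results of these data known. Of 321 listed genes, 320 matched the gene table and 255 the promoter table. Merging, overlap, classes and assignment were tested on simulated data (12 of 12 checks recovered). Python 3.11.15, numpy 2.4.6, pandas 2.3.3, scipy 1.17.1 and matplotlib 3.10.9 were used. Alternatives covered the overlap rule, list length, peak width, chromosomes, merging, the boundary window and the assignment distance.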

Additional observations from a re-analysis of the deposited data

How the results depend on the processing

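No paired analysis was possible because each group of 2 libraries has a single peak list, which also meant that leaving out a library could not be tried. Values are given for 56h-only and then 40h-only regions. With 50% reciprocal overlap, 13.9% of 56 h peaks and 22.1% of 40 h peaks had no partner, 36.7% and 75.4% of the regions were called in continuous E2, 43.6% of 56h-only regions at 120 h, and the 56h-only median width was 471 bases. With that rule for the other lists only, 42.3% and 74.8% were called in continuous E2. With both lists cut to the shorter length, the shares without a partner were 17.6% and 17.7%, 63.0% of 56h-only regions were called in continuous E2 and 51.8% at 120 h, gene boundary shares were 44.8%, 41.0% and for shared regions 75.1%, and median widths were 389 and 657 bases. Equal lengths make the first 2 shares about equal by construction. With peaks at or above the median width alone, the shares without a partner were 8.84% and 13.9%, 69.7% and 85.1% were called in continuous E2, 55.1% and 31.5% at 120 h, boundary shares were 68.7%, 53.3% and 80.8%, and median widths were 769 and 898.5 bases. Boundary windows of 500 bases gave 48.6%, 32.9% and 70.3%, and those of 2500 bases 57.2%, 40.4% and 76.0%. Leaving out chromosomes 18 and 19 or not merging moved none of these 11 values beyond its interval. Counting peaks within 200 bases as shared tested nothing, as no peaks lay that close. Of 360 comparisons of gene list counts, 314 stayed within 1.5 times, and of the 46 others 31 came from dropping narrow peaks and 10 from equal list lengths. Of 125 named genes, 78 had other counts with narrow peaks dropped, 19 with equal list lengths, 18 with assignment within 20000 bases and 4 with 50% reciprocal overlap. With the distance at 20000 bases, Cxcr4 kept no 40h-only region. Depth is unknown, and a region missing from a list may lie just under its threshold.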

Other observations

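MicroRNA genes were open in only one of the lists in a few places. Of 1005 microRNA genes of the RefSeq table, 15 had a 56h-only region within 1000 bases of the hairpin, 8 had a 40h-only one and 54 a shared one. These were 9 distinct 56h-only and 6 distinct 40h-only regions, 13.2% and 8.82% of the regions near a microRNA gene, against 9.71% and 18.5% of all regions. The region chr8:84207882-84208085, just before the cluster of Mir23a, Mir27a and Mir24-2, was 56h-only and was also called in E2 and at 72 h. The cluster is made from 1 transcript and is abundant in myeloid cells. Its main mature products follow from RefSeq on GRCm38.p6, with the seed (bases 2 to 8) in capitals, and all 3 seeds differ.
mmu-miR-23a-3p: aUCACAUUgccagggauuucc
mmu-miR-27a-3p: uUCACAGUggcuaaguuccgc
mmu-miR-24-3p: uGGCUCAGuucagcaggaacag

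Mir132 and Mir212, a neighbouring pair, shared a 56h-only region of chromosome 11 that was also called at 24 h and 72 h, and Mir130b and Mir301b shared one on chromosome 16 with the same pattern. Mir2861 and Mir3960 lay at a region near Cdk9 that began with 56 h. Among the 40h-only regions, that at Mir763 lay near the progenitor gene Hmga2 and was also called at 24 h, and that at Mir8120 near Lekr1 ended with 40 h. These microRNA genes were chosen after their values were seen.

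Among the widest 56h-only regions were those at the starts of Klf13, with 2258 bases, and of Rbpj, the DNA-binding partner of Notch, with 2193 bases. The region of Nfkb2, an NF-kB subunit gene, had 1734 bases and was called in all lists but that at 40 h. Among the widest 40h-only regions, that of Tgif1, a repressor of TGF-beta signalling, had 2493 bases and that of Lpxn, the leupaxin gene, 2038 bases. Both ended with 40 h. That of Nr3c1, the glucocorticoid receptor gene, had 2810 bases and was called at 40 h and 72 h alone.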
